A study of Mus musculus with 12 samples.

Results

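Hearts of mice given sunitinib were set against hearts of mice given sorafenib, gene by gene, to see what separates a pair of drugs that share receptor targets. The contrast holds 6 of the 12 heart RNA libraries in the study, chosen by their treatment label, with 3 libraries of each drug. All 12 came from female mice of the FVB strain. One group received sunitinib at 40 mg/kg/day for 14 days, a second sorafenib at 30 mg/kg/day for 14 days, another erlotinib at 50 mg/kg/day for 14 days, and the controls received water. The doses of the drugs differ, so each value below compares the drugs as given and not at a matched dose. A library is called a heart below, although the labels do not state outright that each came from a separate mouse. The labels give neither the age of the mice nor which chambers of the heart were taken. The title of the study places it in the cardiotoxicity of kinase inhibitors. The files list 21705 genes, of which 13440 had enough reads to be tested.

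Sunitinib and sorafenib are oral inhibitors of tyrosine kinases used against kidney cancer, among others. Both block VEGF receptors, which endothelial cells need for growth and survival, and PDGF receptors, which pericytes and fibroblasts use, as well as KIT, FLT3 and RET. Sunitinib also blocks the macrophage receptor CSF1R, and sorafenib also blocks the RAF kinases that carry receptor signals to MEK and ERK. Hypertension and loss of contractile function of the heart are known side effects of such drugs. The RNA values here report transcript levels and not kinase activity.

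The 6 libraries held 14.5 to 16.5 M estimated read counts (M, 1e+06) on the listed genes. They did not split by drug along their main axis of variation. The first principal component, with 30.7% of the variance of the 6, put Sunitinib_1368, Sunitinib_1369 and Sorafenib_1372 on one side and Sunitinib_1370, Sorafenib_1371 and Sorafenib_1373 on the other. A score of atrial and conduction markers, given as the mean log2 distance of its members from their mean over all 12 libraries, split them the same way. It was 0.97, 1.24 and 0.69 in the first 3 of these libraries and −0.83, −1.15 and −1.21 in the other 3. The atrial light chain Myl7 was at 101, 173 and 91.4 CPM (TMM-normalised counts per M) in the first 3 and at 0.211, 0.0629 and 0 CPM in the others. Sunitinib_1370 and Sorafenib_1372 thus stood apart from the rest of their groups, and values without them are given where they matter.

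Only 5 genes separated the drugs in edgeR's quasi-likelihood test at a Benjamini-Hochberg adjusted p under 0.05, which is 0.0372% of the 13440 tested, and all 5 were higher with sunitinib. They were Efnb3 (Entrez gene 13643), Pdzd2 (68070), Dsg2 (13511), Kcnj2 (16518) and Lrp4 (228357). No gene was lower with sunitinib at that threshold (0%). Without adjustment, 1325 genes (9.86%) had a p under 0.05, of which 653 were higher with sunitinib (4.86%) and 672 lower (5%). In 1956 genes (14.6%) the 3 libraries of one drug did not overlap the 3 of the other, 939 with sunitinib higher (6.99%) and 1017 with it lower (7.57%). The median log2 fold change over all genes, sunitinib minus sorafenib, was −0.000915.

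Efnb3 encodes ephrin-B3, a membrane ligand that signals to Eph receptors on touching cells. Its level was 141, 144 and 180 CPM in Sunitinib_1368, Sunitinib_1369 and Sunitinib_1370, against 90.9, 94.1 and 91.5 CPM in Sorafenib_1371, Sorafenib_1372 and Sorafenib_1373. Every sunitinib heart was above every sorafenib heart, and the sorafenib hearts lay close together. The controls were between them at 107, 115 and 115 CPM. The log2 fold change between the drugs was 0.75 ± 0.09 (SE), a fitted 1.68-fold difference, with an edgeR adjusted p of 0.0118. It was 0.64 with Sunitinib_1370 and Sorafenib_1372 left out (adjusted p = 0.0147) and 0.81 with the atrial score as a covariate (adjusted p = 0.00764). Efnb3 did not pass without Sorafenib_1371, Sorafenib_1372 or Sorafenib_1373 in turn (adjusted p = 0.0653, 0.0841 and 0.103). Nor did it in a fit of only the 2 groups compared (0.75, adjusted p = 0.142). Against the controls neither drug passed, at 0.46 ± 0.09 for sunitinib (adjusted p = 0.203) and −0.29 ± 0.09 for sorafenib (adjusted p = 0.215). These last values share the control libraries.

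Dsg2 encodes desmoglein-2, the cadherin of the desmosomes that hold heart muscle cells together, and its human gene is mutated in arrhythmogenic cardiomyopathy. It was at 108, 108 and 131 CPM in the sunitinib hearts and at 78.5, 78.6 and 84.6 CPM in the sorafenib hearts, with no overlap. Control hearts had 105, 96.6 and 98.4 CPM. Here the sorafenib hearts were below all controls and the sunitinib hearts above all of them. The difference between the drugs was 0.52 ± 0.08 on the log2 scale, with an edgeR adjusted p of 0.0478. It stayed past the threshold with the atrial score as a covariate (0.59, adjusted p = 0.0343). It did not without Sunitinib_1370 and Sorafenib_1372 (0.41, adjusted p = 0.171).

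Kcnj2 encodes Kir2.1, the main channel of the inward rectifier current that sets the resting potential of ventricular muscle cells. The sunitinib hearts had 106, 117 and 120 CPM and the sorafenib hearts 80.1, 85.7 and 80.0 CPM. The groups did not overlap, and the controls, at 94.6, 84.3 and 86.5 CPM, overlapped the sorafenib hearts. The difference was 0.48 ± 0.07 on the log2 scale (edgeR adjusted p = 0.0478), and it did not pass without Sunitinib_1370 and Sorafenib_1372 (0.47, adjusted p = 0.171) or with the atrial score as a covariate (0.46, adjusted p = 0.0883).

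Pdzd2 encodes a large protein with several PDZ domains, which bind the tails of other proteins. It had 182, 147 and 161 CPM with sunitinib and 112, 115 and 115 CPM with sorafenib. The groups did not overlap, and controls lay between them at 130, 137 and 130 CPM. The log2 difference was 0.52 ± 0.07 (edgeR adjusted p = 0.0469). It did not pass without the 2 libraries that stood apart (0.54, adjusted p = 0.171) or with the atrial covariate (0.51, adjusted p = 0.0883). Lrp4, an LDL receptor relative known as the agrin receptor of the neuromuscular junction, was lower in level. Its sunitinib hearts had 23.4, 25.5 and 29.4 CPM and its sorafenib hearts 15.0, 16.1 and 12.2 CPM. The drugs did not overlap, and the highest control, at 19.9 CPM, was below every sunitinib heart. The log2 difference was 0.85 ± 0.13, a fitted 1.80-fold difference, with an edgeR adjusted p of 0.0494. It did not pass without the 2 libraries (0.84, adjusted p = 0.171), with the atrial covariate (0.86, adjusted p = 0.0883) or with RLE normalization (0.85, adjusted p = 0.0524).

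**Figure D1:**
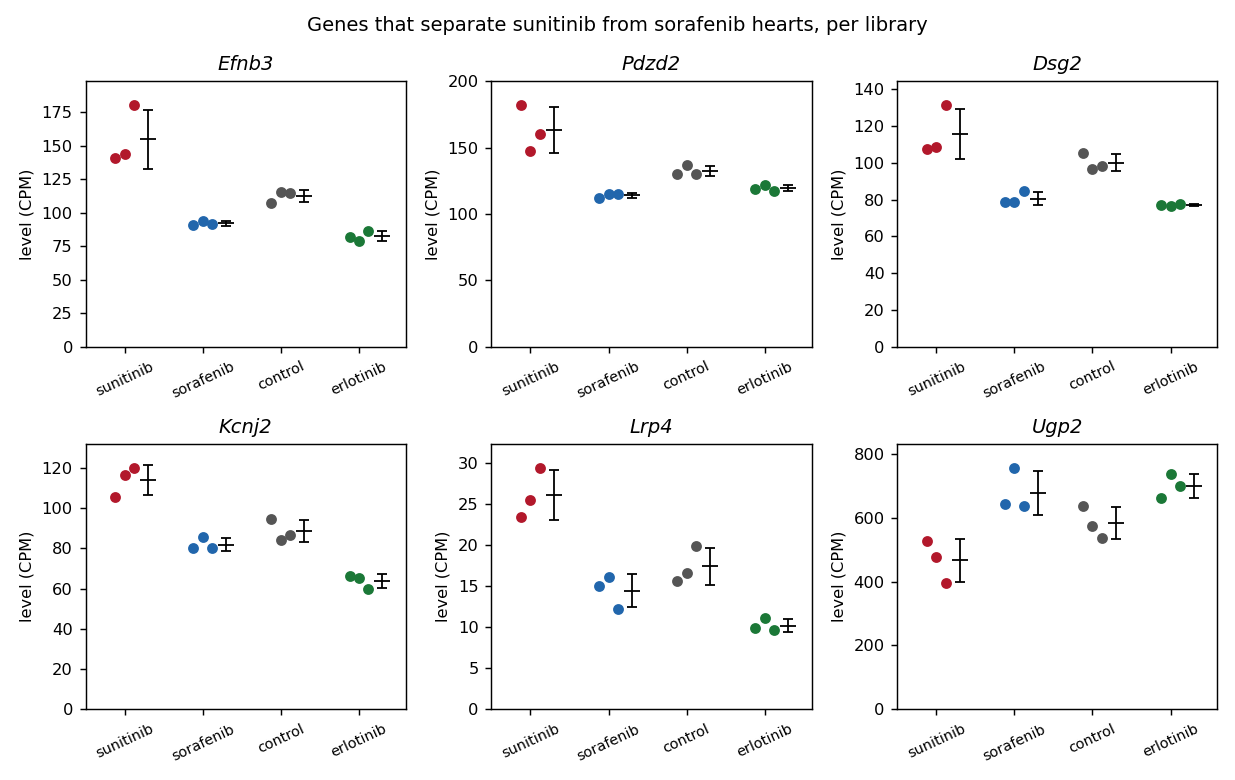
Level in CPM of the 5 genes that passed between the drugs and of Ugp2, which was lower with sunitinib and did not pass. Each point is 1 library, and the bar beside each group is the mean ± SD of its 3 libraries. In each of the first 5 panels all sunitinib points lie above all sorafenib points, and for Ugp2 all lie below.

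Per transcript length (TPM), Efnb3 had the highest mean level of the 5 in sunitinib hearts at 47.9 TPM, followed by Dsg2 at 22.7, Kcnj2 at 20.7, Pdzd2 at 15.8 and Lrp4 at 3.54. In sorafenib hearts the means were 28.5, 14.8, 14.8, 11.1 and 2.13 TPM in the same order. In erlotinib hearts the mean CPM of Efnb3, Dsg2, Kcnj2 and Lrp4 was 82.6, 77.0, 63.8 and 10.2, in each case below the sorafenib mean, and that of Pdzd2 was 120, above it.

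Upstream sequence was at hand for Kcnj2 and Pdzd2, from RefSeq on GRCm38.p6, a later build than the mm9 of the counts. The 250 bases before the annotated start are shown because these are the members of the set whose control region can be read. Kcnj2 lies on the plus strand at chr11:111065914-111066163 and Pdzd2 on the minus strand at chr15:12739893-12740142. Capitals mark matches on either strand to a GC box, spelled GGGCGG, to the 5 letters that name the CCAAT box, or to the E-box CACGTG.
Kcnj2: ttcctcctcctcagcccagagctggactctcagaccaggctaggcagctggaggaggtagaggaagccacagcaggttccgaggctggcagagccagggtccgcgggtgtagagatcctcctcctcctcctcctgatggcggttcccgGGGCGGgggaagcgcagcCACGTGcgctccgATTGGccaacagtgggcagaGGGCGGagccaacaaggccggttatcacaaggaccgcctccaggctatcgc
Pdzd2: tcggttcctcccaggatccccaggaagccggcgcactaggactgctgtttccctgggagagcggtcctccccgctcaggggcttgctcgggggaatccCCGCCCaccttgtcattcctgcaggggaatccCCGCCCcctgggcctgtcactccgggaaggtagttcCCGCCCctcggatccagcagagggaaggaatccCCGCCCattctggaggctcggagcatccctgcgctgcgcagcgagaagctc
The Kcnj2 window held 2 GC boxes, 1 CCAAT box and 1 E-box, and the Pdzd2 window held 4 GC boxes. Among 32851 RefSeq windows of this length, 32.7% held a GC box, 33.8% a CCAAT box and 6.02% an E-box. Neither window had the letters of a TATA box (TATAAA, in 12.4% of windows), a GATA site (AGATAA, 9.99%), an AP-1 site (TGANTCA, 6.75%) or an ETS site (CCGGAAG, 6.91%). All are matches of letters, and no binding was measured.

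Among genes lower with sunitinib none passed, so genes of smallest p are given as not passing. Ugp2, which makes the UDP-glucose used for glycogen, had 527, 475 and 395 CPM with sunitinib against 641, 755 and 635 CPM with sorafenib. That is −0.54 ± 0.11 on the log2 scale, with an edgeR adjusted p of 0.104. The groups did not overlap, and the controls, at 638, 573 and 537 CPM, were above every sunitinib heart and overlapped the sorafenib hearts.

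Srxn1, sulfiredoxin, which repairs oxidised peroxiredoxins and is a target of NRF2, had 30.9, 28.7 and 26.8 CPM with sunitinib and 37.9, 54.3 and 48.5 CPM with sorafenib. Its log2 difference was −0.70 ± 0.13 (edgeR adjusted p = 0.0786). The sorafenib values were above all 3 sunitinib values but spread over a wider range. Fabp4, which carries fatty acids in capillaries and fat cells, averaged 711 ± 32.3 CPM (SD, n = 3) with sunitinib and 1059 ± 85.7 CPM with sorafenib, at −0.57 ± 0.12 on the log2 scale (adjusted p = 0.121). Others among them were Smoc2, a matrix protein of fibroblasts (−0.42), Cdv3 (−0.45), the autophagy receptor Optn (−0.41), Sh3bgr (−0.35), the immune GTPase Gimap6 (−0.45), the membrane repair protein Trim72 (−0.32), and the endothelial receptor Eltd1, now Adgrl4 (−0.36). Their adjusted p values ran from 0.0786 for Smoc2 to 0.135 for Cdv3. In each of the genes named here the drugs' libraries did not overlap.

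How many genes passed depended on single libraries. Without Sunitinib_1368, 37 genes passed, 22 of them higher with sunitinib. Without Sunitinib_1369 there were 2, and without Sunitinib_1370 there was 1. Without Sorafenib_1371, Sorafenib_1372 or Sorafenib_1373 there were 0, at 1438, 1243 and 958 genes with an unadjusted p under 0.05. With both Sunitinib_1370 and Sorafenib_1372 out, 2 passed, of which 1 was among the 5. All 5 genes were higher with sunitinib in each of the 15 alternatives computed. Efnb3 passed in 11 of them, Pdzd2 and Dsg2 in 8, Kcnj2 in 6 and Lrp4 in 4. DESeq2 called 139 genes, 90 higher and 49 lower with sunitinib, the 5 among them.

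**Figure D2:**
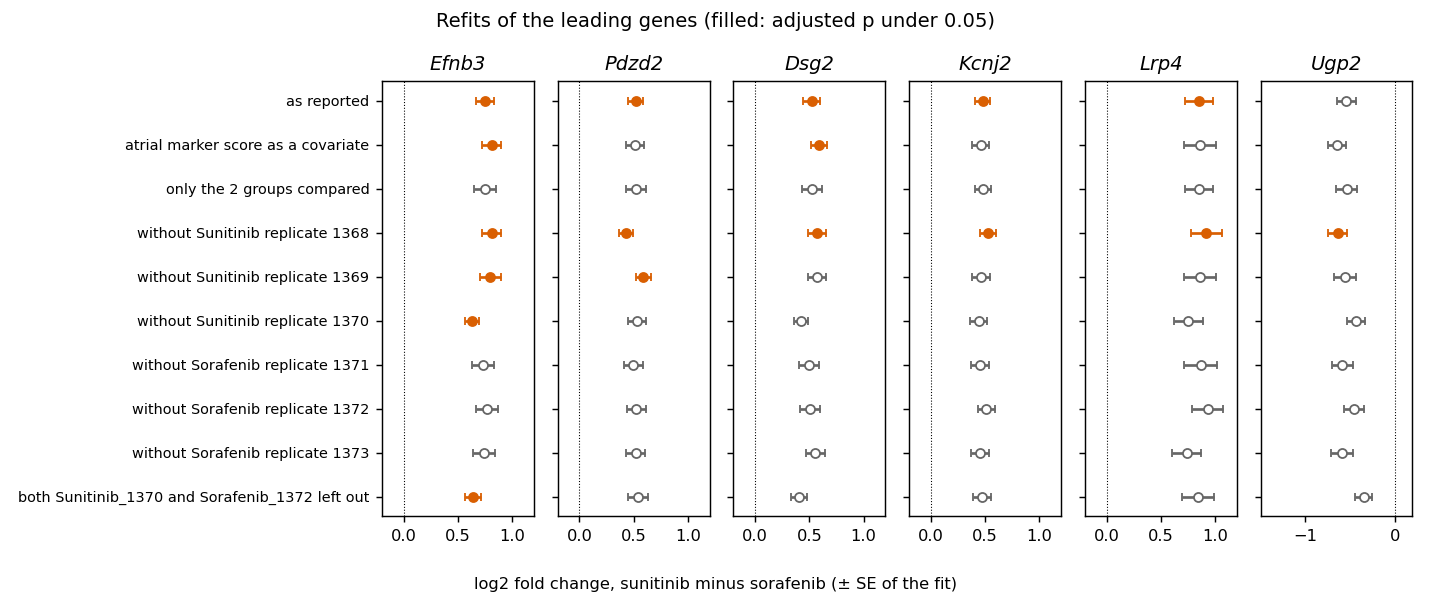
Log2 fold change, sunitinib minus sorafenib, of 6 genes as reported and under 9 refits, with the SE of each fit as a bar. Filled points had an edgeR adjusted p under 0.05. The 5 genes higher with sunitinib stay right of 0 and Ugp2 stays left of 0 in each refit, while few of the refits without a library pass.

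None of the 8 target receptors tested passed between the drugs at the level of transcripts, and Flt3 had too few reads to be tested. Their median log2 fold change was −0.14, with 2 of 8 above 0. At an unadjusted p under 0.05 there were 3 (37.5%), beside 9.86% of all genes, of which 1 was higher with sunitinib. Among VEGF receptors, Kdr, the main signalling receptor of endothelial cells, had 201, 158 and 137 CPM with sunitinib and 194, 246 and 225 CPM with sorafenib, and the groups overlapped. Its log2 difference was −0.42 ± 0.31, with a 95% interval from −1.12 to 0.28 (edgeR adjusted p = 0.725). Controls ran from 69.0 to 186 CPM, a spread that makes this receptor the least precise of the 8. Flt1, which binds VEGF and placental growth factor, differed by −0.10 with an interval from −0.33 to 0.12. Flt4, the receptor of lymphatic vessels, differed by −0.11 with an interval from −0.34 to 0.12.

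Of the PDGF receptors, Pdgfra, which fibroblasts carry, differed by 0.10 with an interval from −0.14 to 0.35. Its sign turned without Sunitinib_1369, which at 85.3 CPM was the highest of the 6. Pdgfrb, which pericytes carry, was at 80.2, 70.5 and 69.3 CPM with sunitinib and at 82.1, 84.0 and 83.2 CPM with sorafenib. The groups did not overlap, yet the difference was small at −0.18 with an interval from −0.39 to 0.03 (edgeR adjusted p = 0.579). Kit, the receptor of stem cell factor, had low levels of 2.49, 1.74 and 2.32 CPM with sunitinib and 2.45, 4.15 and 3.94 CPM with sorafenib. Its difference was −0.68 ± 0.28 (edgeR adjusted p = 0.433), and 1 sorafenib heart was within the sunitinib range. Ret, the receptor of glial-derived neurotrophic factors, differed by −0.50 ± 0.23 (edgeR adjusted p = 0.496).

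Csf1r, which macrophages need and which sunitinib blocks, was the 1 receptor above 0 at an unadjusted p under 0.05. It had 40.8, 35.2 and 30.6 CPM with sunitinib and 26.3, 31.9 and 26.6 CPM with sorafenib, so the lowest sunitinib heart was under the highest sorafenib heart. The difference was 0.33 ± 0.13 (edgeR adjusted p = 0.424). Controls were higher than either drug at 41.7, 42.5 and 43.4 CPM. Against them the log2 fold change was −0.26 ± 0.13 for sunitinib (adjusted p = 0.5) and −0.59 ± 0.13 for sorafenib (adjusted p = 0.116), both from the same control libraries.

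Genes of RAF kinases, a family that sorafenib blocks, lay close together in level with both drugs. Araf averaged 92.4 ± 1.26 CPM (SD, n = 3) with sunitinib and 91.6 ± 0.925 CPM with sorafenib. Its log2 difference of 0.01 had an interval from −0.09 to 0.12. Braf differed by 0.06 with an interval from −0.09 to 0.22. The intervals of these genes thus left room for differences of at most 0.22 on the log2 scale.

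Of 14 ligands of these receptors tested, 7 were above 0 and none passed. Kitl, stem cell factor, was lower with sunitinib at −0.40 ± 0.11 (edgeR adjusted p = 0.24), with 64.8, 55.4 and 75.5 CPM against 76.4, 91.8 and 89.5 CPM and no overlap. Pdgfa was at 0.41 ± 0.14 and Pdgfd at −0.48 ± 0.17, with adjusted p values of 0.345 and 0.353. So the PDGF ligands with the smallest p stood on opposite sides. Among 14 kinases and adaptors of the RAF, MEK and ERK route, none passed and the median was −0.00743. The adaptor Grb2 was at 0.24 ± 0.07 (adjusted p = 0.226) and the MEK gene Map2k1 at −0.15 ± 0.07.

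Genes that ERK signalling is known to induce, among them its feedback inhibitors, were read as a list of 17. None passed, 12 were below 0, and the median was −0.23. The ERK inhibitor Spry4 had 13.7, 11 and 12.4 CPM with sunitinib and 15.2, 18.5 and 18.9 CPM with sorafenib, a difference of −0.50 ± 0.15 (edgeR adjusted p = 0.268). The sorafenib hearts were above the sunitinib hearts and also above the controls, which had 14.6, 14.8 and 13 CPM. The receptor Epha2 was at −0.45 ± 0.13 and the transcription factor Etv1 at 0.61 ± 0.16, with adjusted p values of 0.264 and 0.191. The list's median was 0.02 for sunitinib and 0.25 for sorafenib against the shared controls. Of 9 genes for subunits and upstream kinases of AMPK, an energy sensor that sunitinib is known to inhibit, none passed and 0 had an unadjusted p under 0.05. The smallest p was that of Prkab1, at 0.23 ± 0.12 (adjusted p = 0.564).

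**Figure D3:**
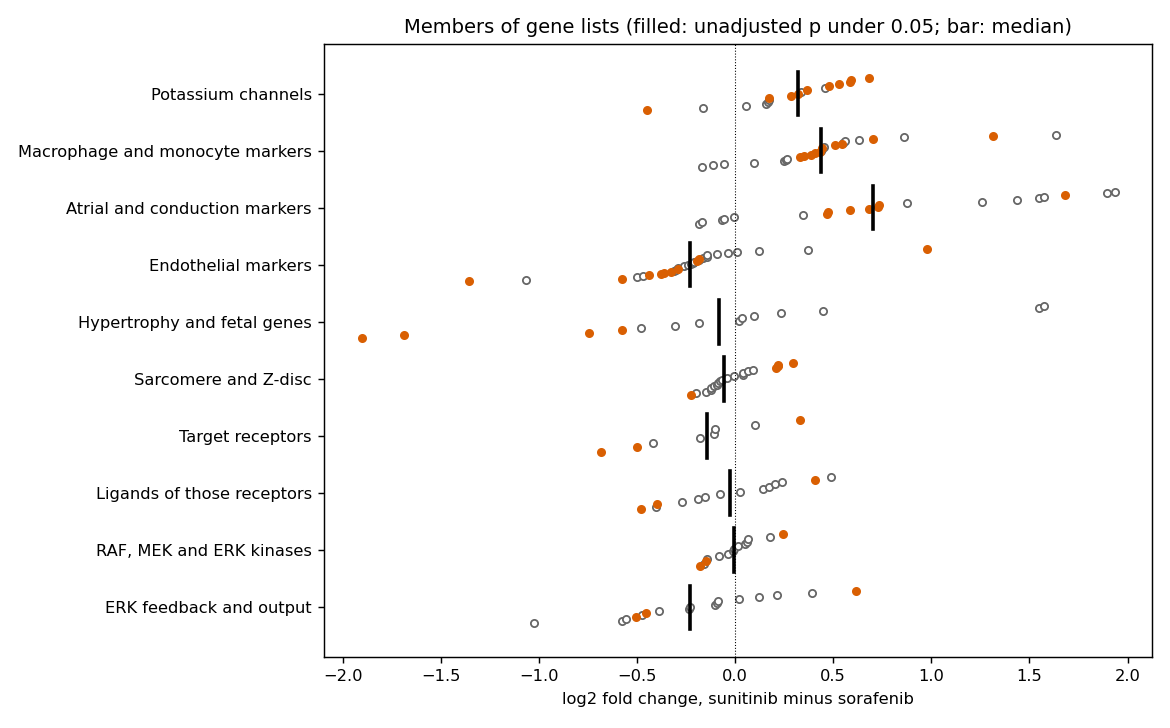
Log2 fold change, sunitinib minus sorafenib, of each tested member of 10 gene lists. Each point is 1 gene, filled where the unadjusted p was under 0.05, and the bar is the list's median. Potassium channels lie mostly right of 0 and endothelial markers mostly left of it, while the RAF, MEK and ERK kinases have a median of −0.00743.

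Potassium channels, which carry the currents that end the heart's action potential and hold its resting potential, stood mostly on the sunitinib side. Of 17 tested, 15 were above 0. Kcnj2 passed, and at an unadjusted p under 0.05 there were 9 higher with sunitinib and 1 lower, beside 4.86% and 5% of all genes. In 7 the groups did not overlap, each with sunitinib higher, beside 6.99% of all genes. The median log2 fold change was 0.32, beside −0.000915 for all genes. The median against the shared controls was 0.12 for sunitinib and −0.10 for sorafenib.

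Subunits of the acetylcholine-gated current, Kcnj3 and Kcnj5, were at 0.68 ± 0.16 and 0.58 ± 0.19 (edgeR adjusted p = 0.159 and 0.338). Kcnj3 had 24.2, 23.6 and 29.8 CPM with sunitinib and 14.3, 16.9 and 17.1 CPM with sorafenib, without overlap. Both subunits also stand in the atrial list. The silent subunit Kcnv2 had 32.4, 39.2 and 50.5 CPM against 27.8, 25.1 and 28.2 CPM, and a difference of 0.59 ± 0.15 (adjusted p = 0.174). Its sunitinib hearts were all above its sorafenib hearts, with Sunitinib_1370 the highest.

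Kcnq1, which carries the slow delayed rectifier, was at 0.53 ± 0.14, and Kcnh2, which carries the rapid one, at 0.28 ± 0.11. The inward rectifier Kcnj12 was at 0.32 ± 0.12, and the transient outward channel Kcnd3 at 0.37 ± 0.15. The ATP-sensitive channel's regulator Abcc8 was at 0.17 ± 0.08. On the other side, Kcna5, an ultrarapid channel, was at −0.45 ± 0.19, and the Kcnd partner Kcnip2 at −0.16 ± 0.09. The adjusted p values of these 7 genes ran from 0.233 for Kcnq1 to 0.615 for Kcnip2, and the 7 were chosen for their values beyond the 3 of smallest p.

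The mean score of the potassium channels was 0.096, 0.044 and 0.34 in the sunitinib libraries and −0.11 in each sorafenib library. In the controls it was 0.059, 0.082 and 0.064, above every sorafenib library and also above Sunitinib_1369. No sunitinib library was as low as a sorafenib library, and Sunitinib_1370 stood well above the others. The atrial scores of these libraries were 0.97, 1.24 and −0.83 with sunitinib and −1.15, 0.69 and −1.21 with sorafenib. With the atrial score as a covariate the median was 0.32, with 11 of 17 at an unadjusted p under 0.05. Without Sunitinib_1370 the median was 0.16 with 6 at an unadjusted p under 0.05, and without it and Sorafenib_1372 it was 0.13 with 5.

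**Figure D4:**
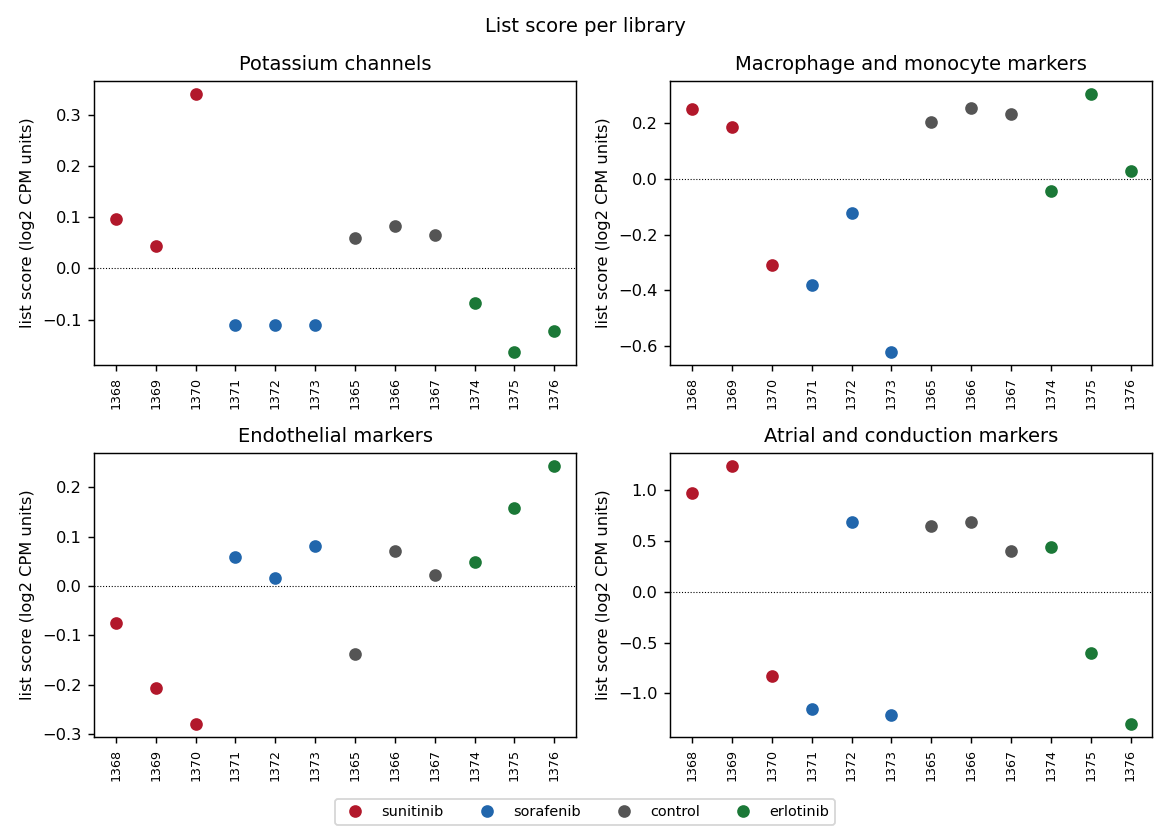
Score of 4 gene lists in each of the 12 libraries, as defined above, on the log2 scale. Each point is 1 library, coloured by group. Sunitinib and sorafenib points do not overlap for potassium channels and endothelial markers, and they overlap for macrophage and atrial markers.

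Macrophage and monocyte markers were above 0 in 22 of 25 members tested, that is, on the sunitinib side, though none passed. In bulk tissue, fewer cells of a type and less RNA per cell cannot be told apart. At an unadjusted p under 0.05 there were 10, all higher with sunitinib, beside 4.86% of all genes, and the median was 0.44. Against the shared water controls the median was −0.16 for sunitinib and −0.59 for sorafenib. The summed level of the list was 470 to 693 CPM with sunitinib, 377 to 515 CPM with sorafenib and 618 to 738 CPM in controls.

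Retnla, made by alternatively activated macrophages, had 5.59, 3.74 and 4.29 CPM with sunitinib, 2.20, 1.95 and 1.29 CPM with sorafenib, and 8.06, 10.5 and 8.48 CPM with water. The 3 groups did not overlap, with sorafenib lowest and water highest. Between the drugs the difference was 1.31 ± 0.29 (edgeR adjusted p = 0.135). It was the 1 gene of 13440 (0.00744%) that passed for sorafenib against control, at −2.30 ± 0.29 (adjusted p = 0.0281), and for sunitinib it was −0.98 ± 0.26 (adjusted p = 0.273). Without adjustment, 1667 genes (12.4%) had a p under 0.05 for sorafenib. No gene passed for sunitinib against control (0%). There were 1460 genes (10.9%) with an unadjusted p under 0.05 in that contrast, and 86 called by DESeq2.

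Lysozyme, Lyz2, had 171, 169 and 115 CPM with sunitinib and 96.3, 123 and 92.8 CPM with sorafenib. The overlap came from Sunitinib_1370, the lowest of its group, and the difference was 0.54 ± 0.15 (edgeR adjusted p = 0.233). The Fc receptor chain Fcer1g was at 0.51 ± 0.16 and the complement gene C1qa at 0.44 ± 0.16, the latter chosen after its values were seen. Scores of the list were 0.25, 0.19 and −0.31 in the sunitinib libraries and −0.38, −0.12 and −0.62 in the sorafenib libraries. Within each drug, the libraries whose atrial score was above 0 also had the higher macrophage scores. With the atrial score as a covariate the median was 0.29, with 3 members at an unadjusted p under 0.05. Without Sunitinib_1368 the median was 0.28 with 3 such members, and without Sorafenib_1373 it was 0.33 with 4. Without both Sunitinib_1370 and Sorafenib_1372 it was 0.67 with 16.

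Endothelial markers lay on the other side. Of 30 tested, 26 were below 0, none passed, and the median was −0.23. At an unadjusted p under 0.05, 9 were lower and 1 higher with sunitinib, beside 5% and 4.86% of all genes. In 8 sunitinib was lower without overlap, beside 7.57% of all genes. The angiopoietin co-receptor Tie1 had 78.5, 63.1 and 63.8 CPM with sunitinib and 93.3, 82.2 and 103 CPM with sorafenib. All sunitinib hearts were below all sorafenib hearts, at −0.44 ± 0.10 (edgeR adjusted p = 0.135). The junction gene Cdh5, VE-cadherin, was at −0.38 ± 0.11 (adjusted p = 0.24), with 189, 148 and 161 CPM against 201, 201 and 244 CPM. Eltd1 and Fabp4, given above, complete the 3 of smallest p with Tie1.

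Not every member lay below 0 by a like amount. Pecam1 was at −0.04 with an interval from −0.29 to 0.22, and its sign turned without Sunitinib_1370. Vwf, the clotting factor of larger vessels and endocardium, stood opposite to the list at 0.98 ± 0.37 (edgeR adjusted p = 0.428). It had 83.6, 124 and 72.3 CPM with sunitinib and 57.7, 45.3 and 39.0 CPM with sorafenib, without overlap, but controls ran from 46.7 to 141 CPM. Cdh5, Pecam1 and Vwf were chosen for their values. The list scores were −0.075, −0.21 and −0.28 with sunitinib and 0.058, 0.016 and 0.081 with sorafenib, and controls ran from −0.14 to 0.071. Against the shared controls the median was −0.084 for sunitinib and 0.11 for sorafenib. Over the 15 alternatives the median between the drugs ran from −0.31 to −0.20.

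Pericyte and smooth muscle markers, the neighbours of endothelium on small vessels, had 9 of 15 below 0 and a median of −0.02. The pericyte proteoglycan Cspg4 had 25.1, 21.4 and 18.1 CPM with sunitinib and 28.3, 31.7 and 31.2 CPM with sorafenib. The groups did not overlap, at −0.50 ± 0.14 (edgeR adjusted p = 0.241), and controls were on the sunitinib side at 21.4, 15.8 and 21.3 CPM. Higd1b was at −0.36 ± 0.14 and Rgs5 at −0.26 ± 0.10. Fibroblast markers had 11 of 20 above 0 and a median of 0.07, with Smoc2 lower, Gsn at 0.38 ± 0.14 and Dpep1 at 0.55 ± 0.23. None of either list passed.

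**Figure D5:**
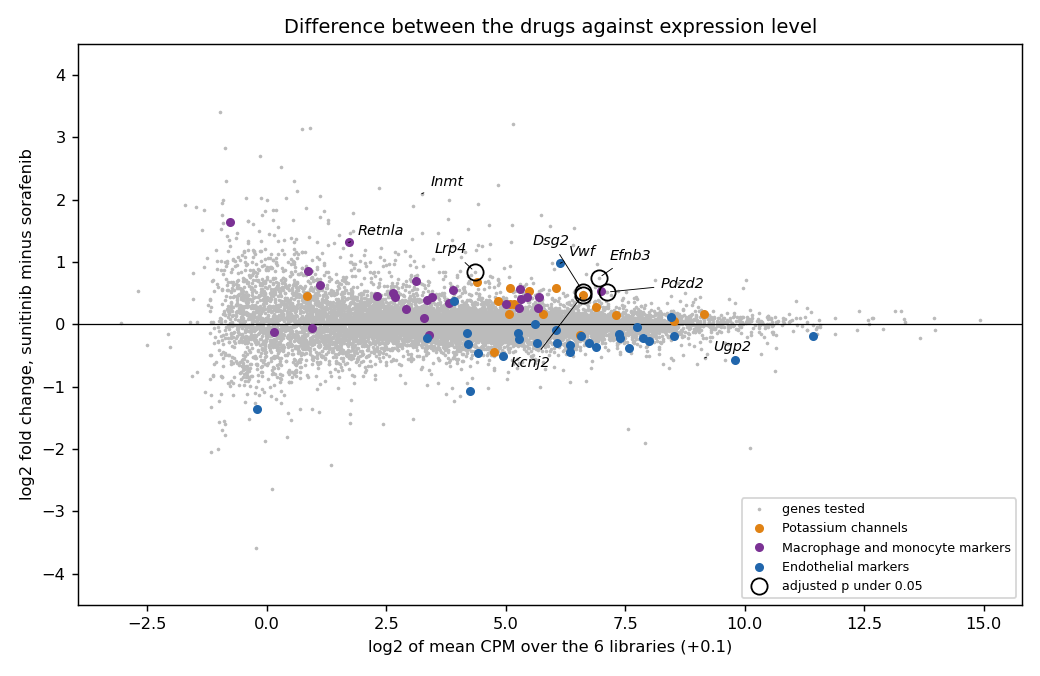
Log2 fold change, sunitinib minus sorafenib, against log2 of the mean CPM of the 6 libraries for all 13440 genes tested. Colours mark potassium channels, macrophage and monocyte markers and endothelial markers, and rings mark the 5 genes with an edgeR adjusted p under 0.05. The ringed genes have differences of 0.48 to 0.85.

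Atrial and conduction markers had 15 of 20 above 0 and a median of 0.70, but followed single libraries. At an unadjusted p under 0.05 there were 7, all higher with sunitinib, beside 4.86% of all genes. The atrial genes Sln, Myl4 and Myl7 were at 1.93 ± 1.81, 1.55 ± 1.84 and 1.58 ± 2.04 and overlapped between the drugs. Stard10 had 35.5, 37.6 and 33.5 CPM with sunitinib and 19.2, 24.5 and 20.2 CPM with sorafenib. Tbx5, a transcription factor of atria and the conduction system, had 55.8, 62.2 and 53.1 CPM against 42.9, 40.9 and 39.3 CPM. For both, Sunitinib_1370 was the lowest of its group yet above every sorafenib heart, and the differences were 0.74 ± 0.20 and 0.47 ± 0.14 (edgeR adjusted p = 0.223 and 0.283). Without Sorafenib_1372, 12 members had an unadjusted p under 0.05, and without it and Sunitinib_1370 there were 14.

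Genes of hypertrophy and the fetal heart had 4 of 14 lower with sunitinib at an unadjusted p under 0.05, beside 5% of all genes, and none passed. As a whole the list was split, with 7 above 0 and 7 below and a median of −0.08. That median ran from −0.56 to 0.12 over the 15 alternatives. The members named here are those of smallest p. Ankrd1, a stretch-responsive protein of the sarcomere, averaged 1192 ± 78 CPM (SD, n = 3) with sunitinib and 1995 ± 417 CPM with sorafenib, a difference of −0.74 ± 0.16 (edgeR adjusted p = 0.138). The hormone gene Nppb, a clinical marker of heart strain, had 154, 71.7 and 40.2 CPM with sunitinib and 269, 296 and 294 CPM with sorafenib. Controls, at 115, 205 and 169 CPM, were below every sorafenib heart and overlapped the sunitinib hearts. Its difference was −1.69 ± 0.45 (adjusted p = 0.259). It was −1.31 without Sunitinib_1370 and Sorafenib_1372 (adjusted p = 0.455) and −2.35 without Sunitinib_1368, where it passed (adjusted p = 0.045), as it did with DESeq2 (adjusted p = 0.0308).

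Acta1, skeletal actin, had 84.6, 193 and 26.7 CPM with sunitinib and 442, 390 and 305 CPM with sorafenib. The groups did not overlap, but the sunitinib hearts spread widely, at −1.90 ± 0.61 (edgeR adjusted p = 0.354). Here Sunitinib_1370 was lowest, and the control hearts, at 302, 242 and 362 CPM, were all above the sunitinib hearts. Xirp2, an actin-binding protein of the cell junctions of heart muscle, was at −0.58 ± 0.19 (adjusted p = 0.345). This list also holds Myl4 and Myl7, which follow the atrial score.

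Among 20 genes of the sarcomere and Z-disc, 4 were higher and 1 lower with sunitinib at an unadjusted p under 0.05, beside 4.86% and 5% of all genes, and the median was −0.06. The Z-disc gene Nebl was at 0.30 ± 0.09, the formin Fhod3 at 0.22 ± 0.07 and troponin I, Tnni3, at 0.22 ± 0.09, with edgeR adjusted p values of 0.266, 0.283 and 0.44.

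Markers of other cells and tissues were read to see what else the samples held. For skeletal muscle, Myh2 was at 0 in all 12 libraries, as were the brown fat gene Zic1, the lung gene Cldn18, the cholinergic gene Chat and the mast cell genes Ms4a2 and Fcer1a. Of 13 white fat markers 9 were above 0, with a median of 1.05 that ran from 0.017 to 1.3 over the 15 alternatives. Against the shared controls the median was −0.11 for sunitinib and −0.95 for sorafenib. Scores of the white fat list overlapped, from −0.28 to 0.70 with sunitinib and from −0.81 to −0.027 with sorafenib. At an unadjusted p under 0.05, 1 was higher and 2 lower with sunitinib, beside 4.86% and 5% of all genes. The 2 lower were Fabp4, given above and also in the endothelial list, and Adipor2 at −0.21 ± 0.08. The higher was the lipid droplet gene Plin1, at 2.0 ± 0.83 on levels of 1.03, 2.78 and 0.562 CPM against 0.378, 0.237 and 0.475 CPM. The summed level of the list was 6910 to 7420 CPM with sunitinib and 7040 to 8090 CPM with sorafenib. All 5 red cell markers tested were above 0, with Hba-a2 at 0.71 ± 0.28 and Alas2 at 0.56 ± 0.23, and their summed level was 1000 to 1730 CPM with sunitinib and 819 to 1060 CPM with sorafenib. Their part in the differences above was not tested.

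Singly, the liver-type gene Trf, which other cells also express, was at 0.76 ± 0.15 (edgeR adjusted p = 0.104). Epicardial and mesothelial markers stood on opposite sides. Of these, C3, which other cells also express, was at 0.97 ± 0.21 (edgeR adjusted p = 0.139). Aldh1a2, which makes retinoic acid, was at −1.44 ± 0.34 with 2.07, 1.68 and 1.48 CPM against 3.84, 2.96 and 7.54 CPM. The Schwann cell gene Gfra3 was at 0.92 ± 0.30 on a level under 2 CPM in all 6 hearts.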

How the data were processed

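RNA of 12 mouse heart samples was sequenced from polyA libraries made with a stranded kit, per the labels' protocols. Per the submitters' processing notes, RSEM, Picard 1.88, SAMtools 1.2 and the build mm9 were used. Neither aligner nor annotation is given in the sources used here. Deposited by the authors were expected counts (estimated by RSEM, so they can be fractional), TPM values, and a scaled signal that equals the expected count times 1 factor per library. The deposited TPM values of the listed genes summed to 54.9% to 60.8% of the total that a full gene set has in each library, so the listed genes were part of a larger set and the totals are not the full depth.

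Expected counts were rounded, filtered with filterByExpr and normalised by TMM. The totals were 14.3 to 16.5 M per library. All 12 libraries entered 1 robust quasi-likelihood fit in edgeR 4.0.16 under R 4.3.3, with a mean for each group, so the spread is shared by all groups (biological coefficient of variation 0.128). Two-sided tests had Benjamini-Hochberg adjustment over the 13440 genes tested, and a gene passed at an adjusted p under 0.05. Levels are CPM, differences are log2 fold changes ± SE of the fit, and intervals are at 95%. The model was also run on simulated data, with counts drawn independently for each gene and no atrial difference shared between genes. That run cannot tell how such a difference affects the genes called here. The labels do not say that the libraries came from separate mice, so the spread behind each p value may be technical. No pair of libraries within a group was as alike as sampling noise alone would make them.

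The named genes are the passing genes that averaged at least 1 CPM without overlap (up to 12 in each direction), the 12 of smallest p where fewer than 5 passed in a direction, the target receptors, genes of RAF kinases, and the 3 members of smallest p of each list described. A list is described where at least 3 members and 1 in 4 had an unadjusted p under 0.05, or where it holds drug targets, their signalling or markers of other cells. A few genes chosen in this way are not reported here. Other list members named were chosen after their values were seen. The members and lists were chosen with earlier results of these data known. Lists have counts and medians and no test.

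Alternatives were DESeq2 1.42.0, RLE normalization, no filter, at least 5 CPM, leaving out the 20 most abundant genes, a fit of only the 2 groups compared, limma 3.58.1 on log2 of the authors' deposited signal plus 1, the atrial marker score as a covariate, each library left out in turn, and Sunitinib_1370 with Sorafenib_1372 left out.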

Additional observations from a re-analysis of the deposited data

How the results depend on the processing

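Between sunitinib and sorafenib, where 5 genes passed, 139 passed with DESeq2, 9 with no filter, 3 with limma on the signal, 2 with the atrial score as a covariate, 2 with both Sunitinib_1370 and Sorafenib_1372 left out, and 0 in a fit of only the 2 groups compared, where 1161 had an unadjusted p under 0.05. Leaving out each library in turn gave 0 to 37. The other 3 alternatives gave 4 or 5.

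For sunitinib against control, where 0 passed, DESeq2 called 86, the unfiltered fit 1 and the atrial covariate 1, and single libraries left out gave 0 to 12, the 12 without Control_1365. For sorafenib against control, where 1 passed, DESeq2 called 175, the unfiltered fit 20, limma 4, the filter at 5 CPM 0, the atrial covariate 0 and the fit without both libraries 5. Single libraries left out gave 0 to 88, the 88 without Control_1365. The cause of these shifts was not tested.

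Signs turned for Pdgfra without Sunitinib_1369 (−0.060), Araf without Sorafenib_1371 (−0.00041) and Pecam1 without Sunitinib_1370 (0.068) and without both libraries (0.069). Over the libraries left out in turn, these differences reached 0.19 for Pdgfra, 0.021 for Araf and −0.12 for Pecam1 at the other end. With the atrial covariate, Sln was at −0.62, Myl4 at −0.90 and Myl7 at −1.18. These genes are members of the list behind that score, so the fit takes out part of their own difference. Nothing is drawn from their turn of sign. Of the other values computed for single genes, none turned sign. No scaling moved the median of all genes by over 0.1. With 3 libraries a group and 14.5 to 16.5 M counts, small differences between the drugs may have been missed. The smallest size that could be detected is not given here. No paired analysis was possible because no replicate number is shared between groups.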

Other observations

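The lists and genes here were chosen after their values were seen, and none has a test as a list. Junctions of the intercalated disc, where heart muscle cells join, had 6 of 17 members higher and 1 lower with sunitinib than with sorafenib at an unadjusted p under 0.05, beside 4.86% and 5% of all genes. Beside Dsg2, these were its desmosome partner Dsc2 at a log2 fold change of 0.33, N-cadherin Cdh2 at 0.21, the catenin Ctnna3 at 0.28, and the gap junction genes Gja5 at 0.47 and Gja1 at 0.44. Gja1, the main connexin of the ventricle, had 608, 517 and 733 CPM with sunitinib and 394, 422 and 554 CPM with sorafenib, so the groups overlapped. Tmem43 was at −0.29. The median of the list was 0.05.

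Of 14 ephrins and Eph receptors tested, Efnb3 passed and Epha7 was at 0.62, while Epha2 was at −0.45. Of 11 autonomic receptors tested, 5 were above 0 and 6 below, and the median was −0.01. At an unadjusted p under 0.05, 3 were higher and 1 lower with sunitinib, beside 4.86% and 5% of all genes. Among the higher, the muscarinic receptor Chrm2 had 61.5, 58.7 and 77.5 CPM with sunitinib and 44.8, 36.5 and 52.3 CPM with sorafenib. Its difference was 0.57 ± 0.13 (edgeR adjusted p = 0.135). The adrenergic receptor Adra1b was at 0.56 ± 0.11 (edgeR adjusted p = 0.114). Among sodium channels, the subunit Scn4b was at −0.74. Of 26 genes of glycogen and glucose phosphorylation, Ugp2 was lower with sunitinib without passing and the phosphorylase kinase gene Phkg1 was at 0.75 ± 0.16 (edgeR adjusted p = 0.119).

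All 46 ribosomal protein genes were above 0, with a median of 0.12, and 3 had an unadjusted p under 0.05 (6.52%, beside 9.86% of all genes). The median ran from 0.07 to 0.17 over the 15 alternatives. Scores of the ribosomal list overlapped between the drugs, from −0.057 to 0.12 with sunitinib and from −0.215 to −0.044 with sorafenib. Of 23 heat shock genes 21 were below 0, with a median of −0.17.

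Inmt, Aqp4 and Aox3, of lower mean level than the 5 genes that passed, differed more in size without passing. The methyltransferase Inmt had 10.4, 16.5 and 18.7 CPM with sunitinib and 4.22, 3.85 and 2.51 CPM with sorafenib, at 2.10 ± 0.33 (edgeR adjusted p = 0.0752). The water channel Aqp4 had 11.5, 26.5 and 28.5 CPM against 6.98, 4.98 and 4.69 CPM, at 1.99 ± 0.36 (edgeR adjusted p = 0.104). The aldehyde oxidase Aox3 had 2.79, 3.42 and 2.25 CPM against 0.189, 0.652 and 0.0679 CPM, at 3.14 ± 0.54 (edgeR adjusted p = 0.0752). Apoe, which carries lipids, had a higher level and a smaller difference than these, and did not pass either. It averaged 474 ± 61.0 CPM (SD, n = 3) with sunitinib and 299 ± 21.6 CPM with sorafenib, at 0.67 ± 0.13 (edgeR adjusted p = 0.104).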
